A study of Mus musculus with 9 samples.

Results

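The 10 genes described here are 5 members of the CCN family of secreted matrix proteins (Ccn1 to Ccn5) and 5 genes of YAP/TAZ signalling: the co-activators Yap1 and Wwtr1, and the target genes Ankrd1, Amotl2 and Lats2. They were chosen by name and read out of the 55536 genes counted in each library, and all 10 passed the filter on low counts, which kept 16039 genes. RNA came from the quadriceps of C57BL/6 mice, given as 6 weeks of age, after volumetric muscle loss, the surgical removal of a piece of muscle. One genotype was labelled Il17ra-/-, a knockout of a receptor subunit for interleukin-17 cytokines (5 libraries), and it was compared with animals labelled WT (4 libraries). All 9 libraries share the injury, the strain and the material, which the sample characteristics give as saline at 1 week after surgery and the extraction protocol as PCL at 6 weeks. The sources used here do not settle which is right, and they say neither which part of Il17ra the allele lacks nor which animal gave which library; the design text speaks of 3 animals per genotype.

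CCN proteins are secreted, cysteine-rich proteins of the extracellular matrix that bind integrins and other receptors and modify how cells respond to growth factors and to mechanical load. Ccn1 and Ccn2 are classic transcriptional targets of YAP and TAZ, a pair of co-activators that enter the nucleus when the Hippo kinases are inactive and act through TEAD transcription factors. In muscle, Ccn2 is known for its induction by TGF-beta and its role in scarring, and Ankrd1 for its induction in stressed or denervated fibres.

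Total counts ran from 31294089 to 46435401 per library. Il17ra itself goes against its label: it stood at 181 to 284 CPM (counts per library size in megareads, with sizes scaled for composition by TMM) in the libraries labelled Il17ra-/-, against 75.9 to 119 CPM in those labelled WT, with a log2 fold change of 1.11 (SE 0.17, edgeR adjusted p = 0.00208). Every direction below therefore refers to libraries by their label. A first principal component, holding 34.3% of the variance, set WT replicate 2 apart, and a second, holding 17.4%, set Il17ra-/- replicate 1 apart. Marker lists were summed as counts per library total. The 8 fibroblast markers summed to 43240 to 54850 CPM in libraries labelled Il17ra-/- and 47500 to 51980 CPM in libraries labelled WT, the 9 markers of skeletal muscle fibres to 3100 to 4258 and 1026 to 2648 CPM, and the 9 leukocyte markers to 8.70 to 16.6 and 18.2 to 35.3 CPM. On the same scale the leukocyte gene Ptprc reached at most 0.483 CPM and Lyz2 10.3 CPM. Fibroblast sums thus lay far above muscle fibre sums in every library, although the source is given as quadriceps. The levels here are therefore not read as levels of whole muscle, and the make-up of the material was not tested. The endothelial list was uneven, with Pecam1 and Vwf at most 3.34 and 4.02 CPM but Kdr up to 76.8 CPM and Tek up to 353 CPM. The muscle fibre sums and the leukocyte sums did not overlap between labels. For leukocytes the gap came from Cd68, a macrophage lysosomal gene, at 1.28 to 4.03 CPM in libraries labelled Il17ra-/- and 11.3 to 23.5 CPM in libraries labelled WT; without it the list summed to 6.74 to 13.3 and 6.93 to 11.8 CPM. In such bulk RNA, fewer cells of a type and less RNA per cell cannot be told apart.

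Of the 10 genes, Ccn2 fell in the libraries labelled Il17ra-/- and the other 9 did not pass the test. Over all genes, edgeR's quasi-likelihood test called 3.06% of those tested (491 genes) at an adjusted p under 0.05, 1.71% lower and 1.35% higher in the libraries labelled Il17ra-/-. With scaling by library totals only, 330 genes were called higher and 232 lower, against 217 higher and 274 lower with composition scaling. The labelled groups did not overlap for 2 of the 10 genes, Ccn2 and Amotl2, and for 9.18% of all tested genes. The log2 fold changes of the 10 genes lay on both sides of 0, from -0.92 for Ccn2 to 0.62 for Ankrd1. The median over all tested genes was -0.0027.

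**Figure D1:**
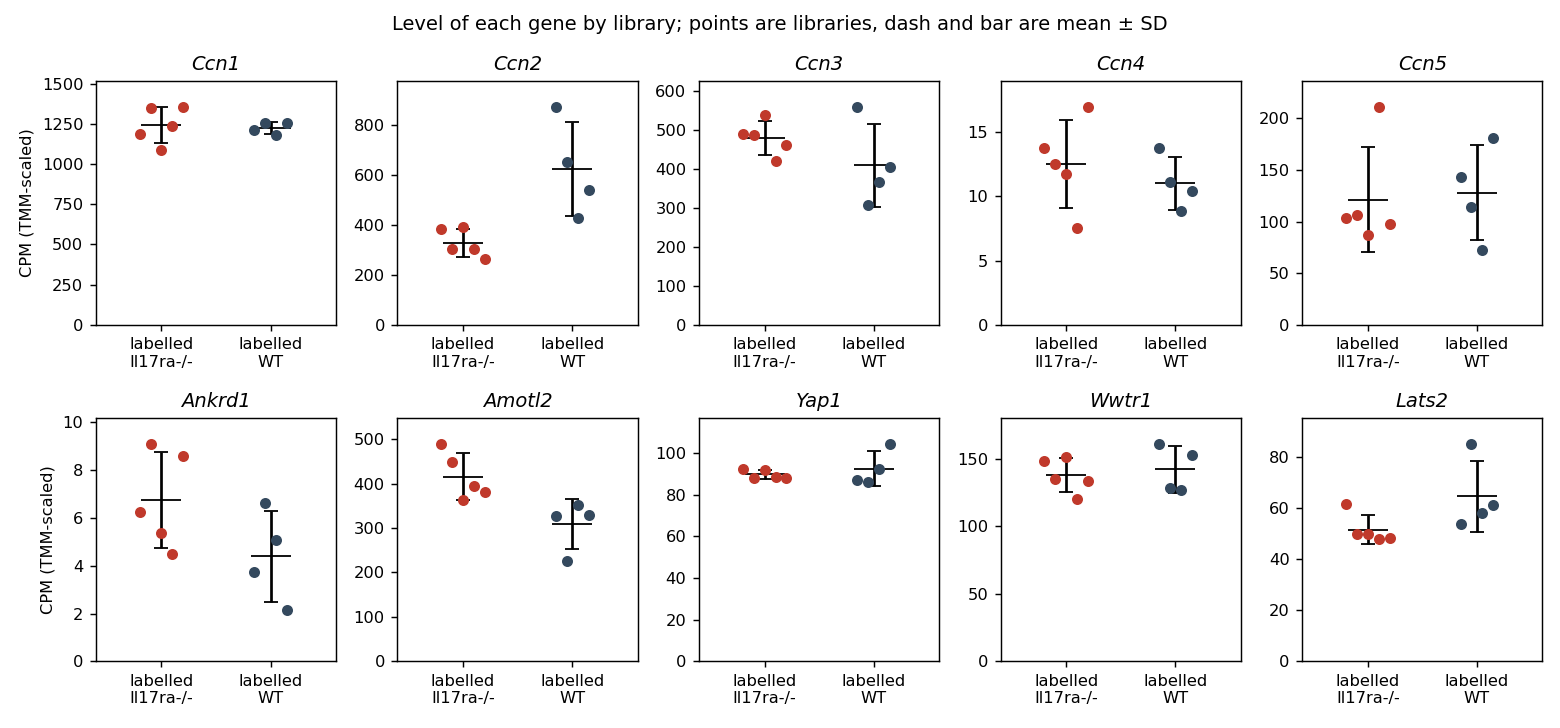
CPM of each of the 10 genes by library, on linear axes that start at 0, with libraries labelled Il17ra-/- at left and libraries labelled WT at right; points are libraries, and the dash and bar are the mean and SD (n = 5 and n = 4). The 2 groups stand clear of each other for Ccn2 (262 to 393 against 430 to 873 CPM) and Amotl2 (363 to 489 against 226 to 351 CPM).

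Ccn2, connective tissue growth factor, spans 24595442 to 24598683 of chromosome 10, plus strand (GRCm38). It had 383, 303, 393, 305 and 262 CPM in Il17ra-/- replicates 1 to 5, against 873, 651, 430 and 541 CPM in WT replicates 1 to 4. All 5 libraries labelled Il17ra-/- lay below all 4 labelled WT, with WT replicate 1 highest and WT replicate 3 closest to the other group. The mean was 329 ± 56.6 CPM (SD, n = 5) in libraries labelled Il17ra-/- and 624 ± 189 CPM (SD, n = 4) in libraries labelled WT, a fold of 0.528. Its log2 fold change was -0.92 (SE 0.19, 95% interval -1.32 to -0.52, edgeR adjusted p = 0.0150). Without both libraries that lay apart it was -0.96 (adjusted p = 0.0237). The summed fibroblast, endothelial, tendon and Schwann cell markers overlapped between labels, though the fibroblast gene Pi16 was called lower (-0.55, edgeR adjusted p = 0.0207). The call of Pi16 was lost under 4 of 18 alternatives. The fibroblast genes Dpt (-0.39, edgeR adjusted p = 0.0933) and Cd34 (-0.25, edgeR adjusted p = 0.219) were not called. Their groups did not overlap either, and both were lower in libraries labelled Il17ra-/-. Of the 8 fibroblast markers, 3 had positive log2 fold changes: Col3a1 (0.23), Pdgfra (0.23) and Col1a1 (0.02). Dcn (-0.12) and Lum (-0.13) were lower. None of these was called, and their groups overlapped. The summed markers of muscle fibres, satellite cells, pericytes and adipocytes were higher in libraries labelled Il17ra-/- without overlap. Those of leukocytes were lower through Cd68. The part of all these markers in the level of Ccn2 was not tested. Between 11094 and 31862 counts stood behind each value. Of its exon length, 23.2% is shared with exons of Gm15270 on the opposite strand, which averaged 18 counts per library against 17309 for Ccn2. The libraries do not keep the strand, and a read that overlaps exons of both genes is given to neither under the counting options in the headers, so the level of Ccn2 is understated in every library.

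Ccn1, the other immediate early gene of the family and an angiogenic matrix protein also called CYR61, did not pass the test. The gene spans 145646976 to 145649981 on the minus strand of chromosome 3. It had 1184, 1346, 1088, 1235 and 1354 CPM in Il17ra-/- replicates 1 to 5, against 1214, 1255, 1180 and 1257 CPM in WT replicates 1 to 4. The WT values lay inside the span of the Il17ra-/- values. The log2 fold change was 0.02 (SE 0.10, edgeR adjusted p = 0.952), with a 95% interval of -0.20 to 0.23 that does not reach the size of the fall of Ccn2.

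The other 3 tested CCN genes did not pass, and their labelled groups overlapped. Ccn3 (NOV), which is known to oppose Ccn2 in models of fibrosis, lies on chromosome 15 from 54745702 to 54754039. It had 488, 485.0, 537, 420.3 and 460.3 CPM in Il17ra-/- replicates 1 to 5, against 557, 307, 366 and 404 CPM in WT replicates 1 to 4 (log2 fold change 0.23, 95% interval -0.10 to 0.56, edgeR adjusted p = 0.497). WT replicate 1 was the highest of all 9 libraries for Ccn3 as well as for Ccn2, and the other 3 libraries labelled WT lay below every library labelled Il17ra-/-. Ccn4 (WISP1), a Wnt-induced member on the same chromosome (66891320 to 66923201), was the least abundant of the 5, at 13.8, 12.6, 11.8, 7.51 and 16.96 CPM in Il17ra-/- replicates 1 to 5, against 13.8, 11.1, 8.83 and 10.4 CPM in WT replicates 1 to 4 (0.18, interval -0.29 to 0.65, adjusted p = 0.731). Ccn5 (WISP2), the member that lacks the C-terminal cystine-knot domain, lies on chromosome 2 from 163820861 to 163833146 and varied 2.42-fold within libraries labelled Il17ra-/- and 2.49-fold within libraries labelled WT. It stood at 104, 107, 87.3, 211 and 97.9 CPM in Il17ra-/- replicates 1 to 5, against 143, 114, 72.8 and 181 CPM in WT replicates 1 to 4 (-0.08, interval -0.67 to 0.51, adjusted p = 0.920). Il17ra-/- replicate 4 and WT replicate 4 were the highest of their groups. Ccn6, the sixth gene of the family, had 0 to 26 counts in libraries labelled Il17ra-/- and 0 to 15 counts in libraries labelled WT and was not tested.

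Per unit of exon length, Ccn1 was the most abundant of the 10 genes in each of the 9 libraries, at 2342 ± 194 TPM (counts per exon length, scaled to the same sum in each library; SD, n = 5) in libraries labelled Il17ra-/- and 2106 ± 155 TPM (n = 4) in libraries labelled WT, and it ranked 49th of all genes by mean TPM. Ccn2 and Ccn3 were close by mean TPM over the 9 libraries (578 and 574 TPM), but their order followed the label. Ccn3 held second place in every library labelled Il17ra-/- (mean 636 TPM, against 439 TPM for Ccn2). Ccn2 held it in every library labelled WT (mean 752 TPM, against 498 TPM for Ccn3). Ccn5 (236 TPM) and Amotl2 (216 TPM) followed by mean and overlapped in rank, then Wwtr1 (107 TPM), which was sixth in each library. In Il17ra-/- replicate 4, Ccn5 (418 TPM) stood above Ccn2 (406 TPM). Yap1 (36.0 TPM) and Lats2 (29.8 TPM) exchanged places between libraries, as did Ccn4 (7.82 TPM) and Ankrd1 (7.25 TPM) at the end of the order. Lats2 shares 42.4% of its exon length with the gene model Gm49361 on the same strand, which was listed at 0 in the 9 libraries. Over the unshared length alone the mean TPM would be 51.8 for Lats2 and 753 for Ccn2. By mean, Ccn2 would stay second, further above Ccn3 (574 TPM), and Lats2 would stand above Yap1 (36.5 TPM). The order of Ccn2 and Ccn3 within each library was not computed on that length.

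The make-up of the CCN transcripts is described here without a test. Ccn2 contributed 12 ± 2.46% of the summed TPM of the 5 genes in libraries labelled Il17ra-/- (SD, n = 5) and 20.7 ± 4.22% in libraries labelled WT (n = 4), with no overlap between 9.37 to 15.1% and 16.7 to 25.9%. Ccn1 held 63.8 ± 3.83% and 59.1 ± 5.82%, and Ccn3 17.4 ± 2.08% and 13.6 ± 2.47%, in the same order of groups. The 5 genes summed to 3664 ± 94.4 TPM in libraries labelled Il17ra-/- and 3595 ± 485 TPM in libraries labelled WT.

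**Figure D2:**
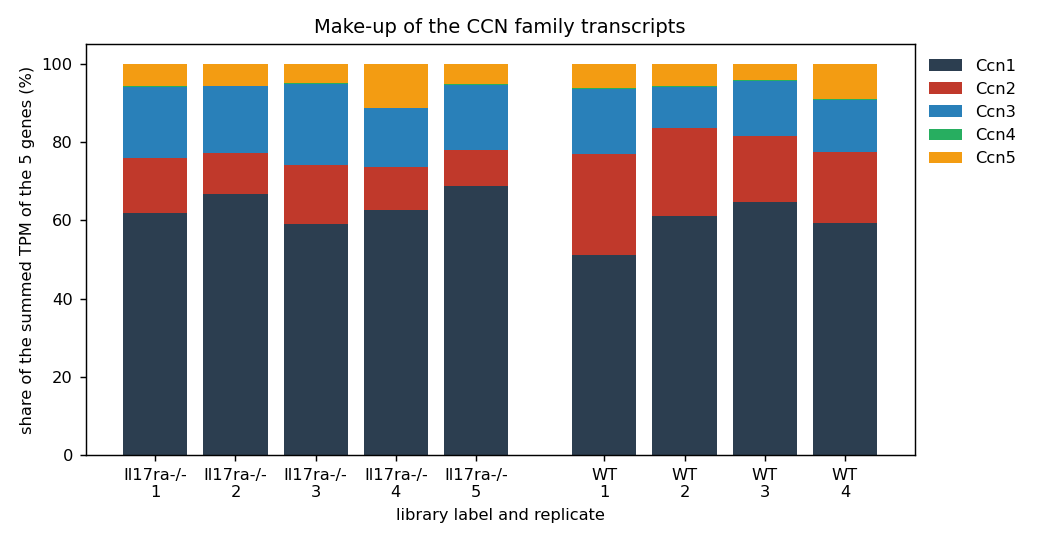
Share of each CCN gene in the summed TPM of the 5 genes, in percent, by library, libraries labelled Il17ra-/- at left. The Ccn2 segment takes 9.37 to 15.1% at left and 16.7 to 25.9% at right, and Ccn1 is the largest segment in each library.

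Ratios of counts within a library do not depend on how libraries are scaled, and 7 of them were compared by exact permutation tests, two-sided, over all divisions of the 9 libraries into 4 and 5. The smallest p that this design allows is 0.0159, and with 7 ratios a result that reaches it together with 1 other has an adjusted p of 0.0556. The log2 ratio of Ccn1 to Ccn2 was 1.63, 2.15, 1.47, 2.02 and 2.37 in Il17ra-/- replicates 1 to 5, against 0.48, 0.95, 1.46 and 1.22 in WT replicates 1 to 4. The groups did not overlap, though Il17ra-/- replicate 3 and WT replicate 3 were nearly equal; the means were 1.93 ± 0.37 (n = 5) and 1.02 ± 0.42 (n = 4), a difference of 0.90 (exact permutation p = 0.0159, adjusted p = 0.0556). The ratio of Ccn2 to Col1a1, the abundant fibroblast collagen gene, differed by -0.89 between labels, from means of -4.73 ± 0.37 in libraries labelled Il17ra-/- and -3.83 ± 0.37 in libraries labelled WT (exact permutation p = 0.0159, adjusted p = 0.0556), again with no overlap. For Ccn5 to Ccn2 the difference was 0.81 (exact permutation p = 0.0476, adjusted p = 0.111). None of the 7 ratios passed after adjustment. The ratios that hold Ccn2 share its counts, so they are not independent of each other or of its edgeR result.

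**Figure D3:**
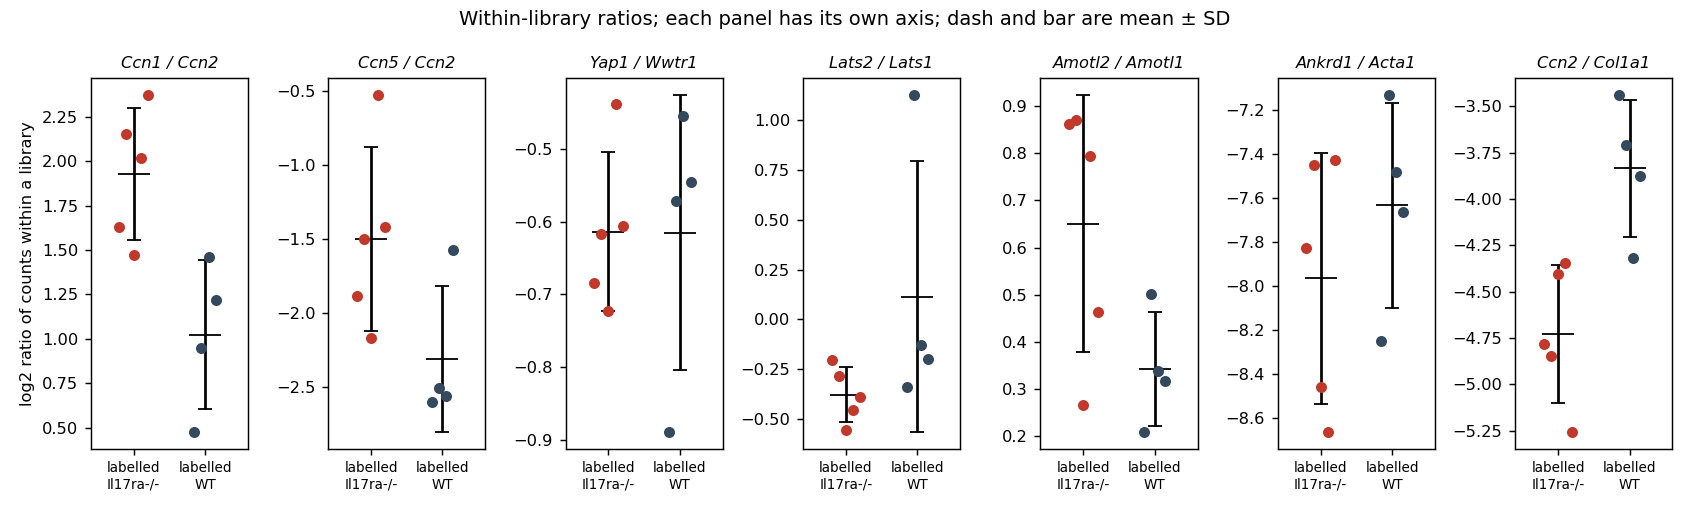
Log2 ratio of the counts of a pair of genes within each library, 1 panel per pair with its own axis, libraries labelled Il17ra-/- at left in each; points are libraries, and the dash and bar are the mean and SD. The groups stand apart for Ccn1 to Ccn2 and for Ccn2 to Col1a1 and overlap in the other 5 panels.

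Neither co-activator passed the test. Yap1, on chromosome 9 from 7931999 to 8004596, had 92.3, 88.0, 91.9, 88.8 and 87.9 CPM in Il17ra-/- replicates 1 to 5, against 86.9, 86.2, 92.6 and 104.5 CPM in WT replicates 1 to 4 (log2 fold change -0.04, 95% interval -0.25 to 0.16, edgeR adjusted p = 0.860). Wwtr1, which encodes TAZ and lies on chromosome 3 from 57455649 to 57575910, had 148, 135, 152, 120.3 and 134 CPM in Il17ra-/- replicates 1 to 5, against 161, 128, 127 and 153 CPM in WT replicates 1 to 4 (-0.04, interval -0.29 to 0.20, adjusted p = 0.882). The groups overlapped for both genes, and Yap1 varied least of the 10 within libraries labelled Il17ra-/-, by 1.05-fold from lowest to highest. With library totals alone as the scaling both log2 fold changes had the opposite sign (0.02 each). The log2 ratio of Yap1 to Wwtr1 averaged -0.61 ± 0.11 in libraries labelled Il17ra-/- and -0.62 ± 0.19 in libraries labelled WT (exact permutation p = 0.984). These are RNA levels; the activity of YAP and TAZ is set largely by their phosphorylation and place in the cell, which RNA counts do not measure.

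Of the 3 other target genes, 0 passed the test. Amotl2, an angiomotin family scaffold that binds YAP, lies on chromosome 9 from 102716672 to 102733418. It had 489, 449, 363, 394 and 381 CPM in Il17ra-/- replicates 1 to 5, against 327, 226, 351 and 329 CPM in WT replicates 1 to 4. The groups did not overlap, but Il17ra-/- replicate 3 and WT replicate 3 were close, and WT replicate 2 was the lowest. The log2 fold change was 0.43 (SE 0.14, 95% interval 0.13 to 0.73), and it did not pass (edgeR adjusted p = 0.137); DESeq2 alone among the 18 alternatives called it (adjusted p = 0.0450). Without both libraries that lay apart it was 0.24 (adjusted p = 0.241). Its ratio to the paralog Amotl1 differed by 0.31 on the log2 scale (exact permutation p = 0.111). The 8 markers of pericytes and smooth muscle, of which 5 rose, summed to 2515 to 3385 CPM in libraries labelled Il17ra-/- against 1519 to 1843 CPM in libraries labelled WT; their part in the level of Amotl2 was not tested.

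Lats2, a Hippo kinase whose gene YAP activates in a feedback loop, lies on chromosome 14 from 57689662 to 57758388. It had 61.7, 50.02, 50.02, 47.8 and 48.5 CPM in Il17ra-/- replicates 1 to 5, against 54.0, 85.3, 58.3 and 61.2 CPM in WT replicates 1 to 4. Il17ra-/- replicate 1 and WT replicate 2, the libraries that lay apart, were the highest of their groups. The log2 fold change of -0.33 (SE 0.14, 95% interval -0.63 to -0.03) did not pass (edgeR adjusted p = 0.259), and without WT replicate 2 it was -0.16. The log2 ratio of Lats2 to its paralog Lats1 was -0.55 to -0.20 in libraries labelled Il17ra-/-, against 1.123 in WT replicate 2 and -0.34 to -0.13 in the other 3 libraries labelled WT (exact permutation p = 0.0635, adjusted p = 0.111).

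Ankrd1 encodes a cardiac and muscle ankyrin repeat protein that binds titin, on chromosome 19 from 36111961 to 36120099. It had 6.26, 9.09, 5.35, 4.50 and 8.59 CPM in Il17ra-/- replicates 1 to 5, against 3.75, 6.59, 5.06 and 2.15 CPM in WT replicates 1 to 4, from 75 to 427 counts. The groups overlapped, and the log2 fold change of 0.62 had a wide 95% interval, from -0.07 to 1.32 (edgeR adjusted p = 0.359). Of the 9 tested genes in the list of muscle ankyrin repeat and titin stress genes, 4 rose and 0 fell, with a list median of 0.75 against -0.0027 over all tested genes: Myoz2 (1.52, adjusted p = 0.0111), Xirp1 (1.68, adjusted p = 0.0210), Ankrd2 (1.57, adjusted p = 0.0358) and Csrp3 (1.45, adjusted p = 0.0383). Of the 4, only Myoz2 stayed called without Il17ra-/- replicate 1, 3 or 4 in turn, or without both libraries that lay apart, and 2 genes of the list were called without Il17ra-/- replicate 2 or WT replicate 2. Of the 9 markers of muscle fibres, 4 rose too (Myh7, Myh2, Mb and Acta1, of which the call of Acta1 was lost under 6 of 18 alternatives); their part in these values was not tested. Set against the muscle actin Acta1 within each library, Ankrd1 had a log2 ratio of -7.97 ± 0.57 in libraries labelled Il17ra-/- and -7.63 ± 0.47 in libraries labelled WT (exact permutation p = 0.381).

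**Figure D4:**
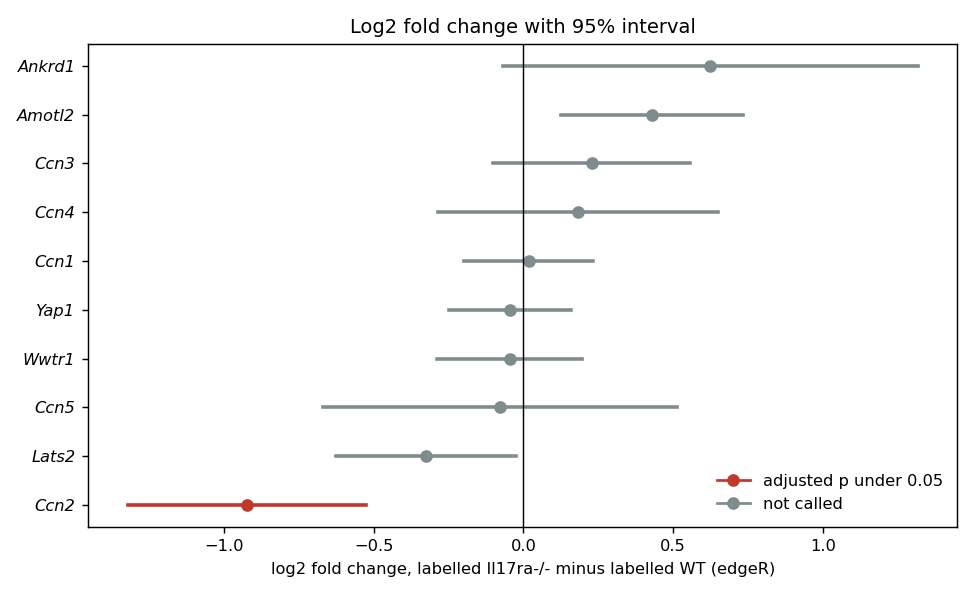
Log2 fold change of each of the 10 genes, libraries labelled Il17ra-/- minus libraries labelled WT, with its 95% interval from the edgeR fit, ordered by size; red marks an adjusted p under 0.05. The interval of Ccn2 (-1.32 to -0.52) is the only one in red; those of Amotl2 (0.13 to 0.73) and Lats2 (-0.63 to -0.03) leave 0 on opposite sides but were not called over all genes.

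TEAD factors bind the hexamer GGAATG, and promoter windows from RefSeq (GRCm38.p6; 250 bases before to 50 after a transcript start) show where it stands. Windows were at hand for 6 of the 10 genes: Ccn1, Ankrd1, Amotl2, Yap1, Wwtr1 and Lats2. Ccn2, Ccn3, Ccn4 and Ccn5 had none. Wwtr1 and Lats2 had 2 windows each. For the target genes, 1 window each is given for Ccn1, Ankrd1 and Amotl2 and the 1 of the 2 Lats2 windows that holds the hexamer; the other Lats2 window (chr14:57734369-57734668) holds none. They are written 5′ to 3′ on the gene's strand, with GGAATG or its reverse complement CATTCC in capitals.
Ccn1, chr3:145649936-145650235, minus strand: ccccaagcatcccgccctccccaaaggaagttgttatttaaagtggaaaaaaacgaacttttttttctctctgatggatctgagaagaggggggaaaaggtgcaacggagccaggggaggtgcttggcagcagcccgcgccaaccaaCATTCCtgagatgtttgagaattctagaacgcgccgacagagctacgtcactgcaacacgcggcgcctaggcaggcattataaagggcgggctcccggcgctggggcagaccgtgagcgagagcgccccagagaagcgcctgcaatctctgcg
Ankrd1, chr19:36119795-36120094, minus strand: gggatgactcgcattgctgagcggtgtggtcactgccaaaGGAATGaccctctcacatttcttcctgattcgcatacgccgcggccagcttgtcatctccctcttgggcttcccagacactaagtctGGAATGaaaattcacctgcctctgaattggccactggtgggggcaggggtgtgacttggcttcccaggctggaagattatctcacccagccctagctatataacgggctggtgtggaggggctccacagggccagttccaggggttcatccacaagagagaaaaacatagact
Amotl2, chr9:102717554-102717853, plus strand: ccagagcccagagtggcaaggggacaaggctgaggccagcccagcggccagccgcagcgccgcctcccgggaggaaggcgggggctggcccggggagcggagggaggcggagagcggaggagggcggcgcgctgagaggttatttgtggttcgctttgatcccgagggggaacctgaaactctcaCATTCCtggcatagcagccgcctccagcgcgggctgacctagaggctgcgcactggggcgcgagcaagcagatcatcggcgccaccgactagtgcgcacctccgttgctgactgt
Lats2, chr14:57746074-57746373, minus strand: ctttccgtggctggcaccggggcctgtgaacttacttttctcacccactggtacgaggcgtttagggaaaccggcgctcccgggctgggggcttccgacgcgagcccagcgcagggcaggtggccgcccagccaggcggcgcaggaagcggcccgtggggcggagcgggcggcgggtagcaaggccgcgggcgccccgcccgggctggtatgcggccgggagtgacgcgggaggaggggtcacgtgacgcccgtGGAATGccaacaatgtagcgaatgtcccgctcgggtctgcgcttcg
The hexamer begins 103 bases before the start in Ccn1, 210 and 123 bases before it in Ankrd1, 65 bases before it in Amotl2 and at base 5 counted from it in Lats2. Counting both strands, 7 of the 8 windows of these 6 genes held a match, as did 14.7% of the 32817 windows in the table. The 2 Wwtr1 windows (chr3:57575861-57576160 and chr3:57575827-57576126) overlap and hold the same hexamer, so 1 site counts in 2 of the 7. Neither the AP-1 motif TGANTCA (7.81% of all windows) nor the CArG box of serum response factor (1.63%) had a match in the windows of these 6 genes. None of the 4 genes printed passed the test between labels, with log2 fold changes of 0.02 for Ccn1, 0.62 for Ankrd1, 0.43 for Amotl2 and -0.33 for Lats2. A match of letters describes the window and says nothing of binding.

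Counts for the wider pathway are read against the 3.06% called over all tested genes. Of 17 genes of the Hippo kinase cascade and its activators, 0 were called (list median 0.11), and the smallest p after Lats2 belonged to Mob1b (0.23, edgeR adjusted p = 0.399), a kinase adaptor. Taok1 (0.20, adjusted p = 0.524) and Sav1 (0.17, adjusted p = 0.595), upstream and scaffold components, were next. Of 16 co-activators, partners and restrainers of YAP and TAZ, 1 rose: Ajuba, a LIM protein that restrains LATS kinases, at 18.5 to 28.3 CPM in libraries labelled Il17ra-/- and 13.6 to 15.5 CPM in libraries labelled WT (0.66, SE 0.14, adjusted p = 0.0237). DESeq2 called 3 genes of the list higher. The call of Ajuba was lost without Il17ra-/- replicate 1, 3 or 4 or WT replicate 3 or 4, each left out in turn. Tead1, a TEAD factor, stood at 90.5 to 116 CPM and 50.3 to 86.3 CPM in the same groups and did not pass (0.48, adjusted p = 0.118), nor did Limd1, another LIM protein (0.29, adjusted p = 0.207). The list median was 0.21.

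A signature of 22 YAP/TAZ target genes, drawn up from human tumours and cell lines and holding Ccn1, Ccn2, Ankrd1, Amotl2 and Lats2, had 2 falls and 1 rise among its 22 tested genes, with a list median of 0.19. Beside Ccn2, Gadd45b, a stress-induced gene that NF-kB also activates, fell: it stood at 25.2 to 53.5 CPM in libraries labelled Il17ra-/- against 104 to 132 CPM in libraries labelled WT (-1.47, SE 0.19, edgeR adjusted p = 5.95e-04). Arhgef17, which encodes a guanine nucleotide exchange factor, rose, at 114 to 138 CPM against 55.3 to 90.1 CPM (0.68, SE 0.14, adjusted p = 0.0180), and its call was lost without Il17ra-/- replicate 1, 3 or 4.

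TGF-beta responsive genes and immediate early genes were read from the same fit. Their relation to the level of Ccn2 was not tested, nor was the part of the cell type markers in these values. Of 12 TGF-beta responsive genes, 3 fell and 0 rose, though the list median was -0.04. Among those that fell were the SMAD co-repressor Skil (-0.65, edgeR adjusted p = 0.00422) and the feedback inhibitor Pmepa1 (-0.43, adjusted p = 0.0360), and the call of Pmepa1 was lost under 10 of 18 alternatives. Tgfb1, a ligand, did not pass (-0.35, adjusted p = 0.169). Of 16 immediate early genes, 8 fell and 0 rose, with a median of -0.72, among them Atf3, at 297 to 840 CPM against 1496 to 2059 CPM (-1.52, adjusted p = 0.00193), Egr2 (-1.13, adjusted p = 7.93e-04), Fosl2 (-1.11, adjusted p = 0.00102) and Myc (-0.95, adjusted p = 0.00419). Under the 18 alternatives 6 to 9 genes of this list were called, and these named genes kept their calls. Ccn1 is itself induced as an immediate early gene, and its log2 fold change of 0.02 lay above those of all 16. The interval of Ccn1 (-0.20 to 0.23) nevertheless reached into the range of the list (-1.52 to -0.06), of which 8 genes were not called. Whether Ccn1 differs from these genes was not tested.

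Of 18 targets and co-factors of serum response factor, which shares target genes with YAP, 1 rose, Filip1l (0.58, edgeR adjusted p = 0.0133), with a list median of 0.16; without WT replicate 2 there were 4 rises and 1 fall. Fhl2 (-0.60, adjusted p = 0.143), Mrtfb (0.47, adjusted p = 0.169) and Thbs1 (-0.48, adjusted p = 0.223) did not pass. Of 12 tested CCN receptors and binding partners, 1 rose: Notch1, which Ccn3 binds, at 39.2 to 61.1 CPM in libraries labelled Il17ra-/- against 8.56 to 24.7 CPM in libraries labelled WT (1.32, SE 0.25, adjusted p = 0.00951). Pericyte and muscle fibre markers moved with the labels too, and their part in these values was not tested. Syndecan-4, Sdc4, a co-receptor of Ccn1 and Ccn2 on fibroblasts, did not pass (-0.40, adjusted p = 0.114), nor did Itga6 (0.49, adjusted p = 0.234) or Itgb2 (adjusted p = 0.212), which reached at most 0.949 CPM. DESeq2 called 1 gene of the list higher and 1 lower. The list median was 0.15.

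**Figure D5:**
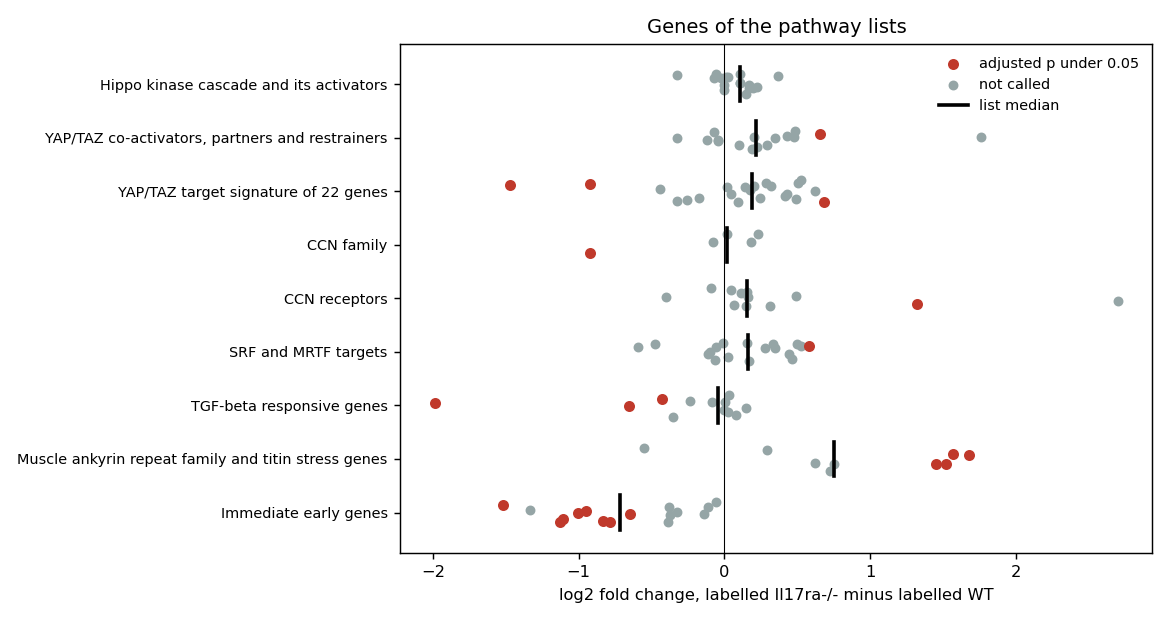
Log2 fold change of each tested gene of the 9 pathway lists, libraries labelled Il17ra-/- minus libraries labelled WT; red points have an edgeR adjusted p under 0.05, and the black bar is the list median. The immediate early genes have a median of -0.72, the muscle ankyrin and titin stress genes have a median of 0.75, and the lists of the Hippo and YAP pathway have medians of 0.11 to 0.21.

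Likeness to Ccn2 was measured as the SD, over the 9 libraries, of the log2 ratio between a gene and Ccn2, on log2(CPM + 1), among 9279 genes with a mean of at least 10 CPM. The closest were Pxdc1 (SD 0.280), Mepce, which encodes the capping enzyme of the 7SK RNA (SD 0.285), and Rasl11b, a small GTPase gene (SD 0.285). Pxdc1 had 42.4, 46.2, 45.0, 36.9 and 40.6 CPM in Il17ra-/- replicates 1 to 5, against 82.0, 95.8, 72.6 and 63.6 CPM in WT replicates 1 to 4. The log2 fold changes of the 3 genes between labels were -0.89, -0.90 and -1.08; since the genes were picked for following Ccn2 over the same libraries, these differences follow from the choice and no test is given.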

How the data were processed

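Bulk RNA sequencing of material given as quadriceps was used in 5 libraries labelled Il17ra-/- and 4 labelled WT. Per the labels' protocols, RNA with an integrity number above 8.0 was made into TruSeq RNA v2 libraries, which do not mark the strand, at a stated depth of 30 M reads. STAR, of a version not stated, did the alignment, per the submitters' processing notes. The authors deposited raw counts per gene from featureCounts 1.6.0 on GENCODE M21 (GRCm38), paired, unstranded and without options for multi-mapping or multi-gene reads, per the file headers. All 55536 gene identifiers matched GENCODE M21.

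Genes were filtered with filterByExpr, scaled with TMM and tested with edgeR 4.0.16 (quasi-likelihood, R 4.3.3) with genotype label as the only term, Benjamini-Hochberg adjusted over 16039 genes; each SE is the size of the log2 fold change divided by sqrt(F). The procedure was tested on simulated data. TPM used the deposited exon lengths over all genes. Ratios used log2((count + 0.5)/(count + 0.5)) and exact permutation tests (scipy 1.17.1), adjusted over the 7. P-values measure the spread between libraries, which no label ties to an animal. Alternatives were RLE, upper quartile and total scaling, other filters, limma 3.58.1, DESeq2 1.42.0, a replicate block, each library left out and, chosen after seeing the data, both libraries that lay apart left out.

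The members and the 9 pathway and 9 marker lists were chosen with earlier results of these data known. Named genes are the 10 members, Il17ra, up to 4 genes per pathway list by smallest p, the 3 genes most like each called member, and the genes paired in ratios. Ptprc, Pecam1, Vwf, Myh7, Myh2, Mb, Cd68, Lyz2, Kdr, Tek, Pi16, Dpt, Cd34, Col3a1, Pdgfra, Dcn and Lum were named after their values were seen. One gene that the rule names is not reported here.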

Additional observations from a re-analysis of the deposited data

Results flagged for a closer look

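In 36 groups of values (10 genes, Il17ra and 7 ratios in each labelled group), 5 held a library far from the rest of its group; chance flags about 1 group in 20. Ccn5 stood at 211 CPM in Il17ra-/- replicate 4, against 87.3 to 107 CPM in the other 4 libraries of that label, and the same library had the highest Il17ra, at 284 CPM against 181 to 199.7 CPM. Lats2 stood at 61.7 CPM in Il17ra-/- replicate 1, against 47.8 to 50.02 CPM in the others. The log2 ratio of Ccn5 to Ccn2 was -1.58 in WT replicate 4, against -2.61 to -2.51 in the other 3. The log2 ratio of Lats2 to Lats1 was 1.123 in WT replicate 2, against -0.34 to -0.13 in the other 3.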

How the results depend on the processing

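The fall of Ccn2 stayed called under all 18 alternatives, with log2 fold changes of -1.06 to -0.71 (adjusted p 1.17e-04 to 0.0487). WT replicate 1, its highest library, gave the smallest fall when left out (-0.71). DESeq2 called 1071 genes and 2 of the 10 members; leaving out 1 library gave 275 to 567 genes. Library totals gave 0.0199 for Yap1 and 0.0183 for Wwtr1. Leaving out 1 library gave -0.0137 to 0.0615 for Ccn1, -0.373 to 0.144 for Ccn5, -0.0901 to 0.0250 for Wwtr1, -0.0742 to 0.0243 for Yap1 and -0.0894 to 0.0552 for the ratio of Yap1 to Wwtr1, all around 0 and not called. The same gave 0.115 (without WT replicate 2) to 0.419 (without WT replicate 1) for Ccn3, 0.0553 (without Il17ra-/- replicate 5) to 0.319 (without Il17ra-/- replicate 4) for Ccn4 and 0.403 (without WT replicate 4) to 0.888 (without WT replicate 2) for Ankrd1, none called. Ccn4 also moved without WT replicate 1 (0.312) or 3 (0.0937). The cause was not tested.

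Replicate numbers are shared between the labels, but same-numbered libraries did not deviate together (correlations of -0.0174 to 0.0557). Of the 4 WT libraries, 2 were closest to their own number. These values show no pairing by number but cannot settle whether the numbers pair the samples. With a replicate block 363 genes were called, Ccn2 kept its call (-0.81, adjusted p = 0.0487), the calls of Filip1l, Ankrd2, Pmepa1 and Acta1 were lost, Ccn4 was 0.0318, Ccn1 was -0.0198 and the ratio of Yap1 to Wwtr1 differed by -9.57e-05.

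Depth limits Ankrd1 most among the 10 genes, and a count of 3 corresponded to 0.0638 to 0.0984 CPM.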
